A study of Mus musculus with 14 samples.

Results

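The 10 T-box genes Tbx1, Tbx2, Tbx3, Tbx4, Tbx5, Tbx15, Tbx18, Tbx20, Eomes and Tbr1 were examined for H3K27me3, trimethylation of lysine 27 of histone H3. They were taken by name and made up 10 of the 21938 protein-coding genes of the annotation. For each gene, the sites of the deposited H3K27me3 list were collected within 1 kb on either side of its transcription start sites (TSSs), in its body and in 50 kb on either side of it. Together these stretches held 173 of the 153983 listed sites. Tbx2 and Tbx4 are neighbours on chromosome 11, as are Tbx3 and Tbx5 on chromosome 5, so that the 10 genes occupy 8 loci. The stretches of Tbx2 and Tbx4 overlapped, while those of Tbx3 and Tbx5 did not.

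The cells were immortalised mouse embryo fibroblasts (iMEF) with floxed Ash2l alleles and a Cre-ER recombinase, in which exon 4 of both endogenous alleles had been deleted and which lived on FKBP-HA2-ASH2L, a tagged human ASH2L delivered by lentivirus. The study describes its ChIP-seq as made in NG3, a clone established by limiting dilution. ASH2L is a core subunit of the KMT2 complexes that methylate H3K4, and dTAG-13 is a PROTAC that has the tagged protein degraded. H3K27me3 libraries were made from control cells without dTAG-13 and after exposure to dTAG-13 of 30 min, 2 h, 4 h, 8 h or 16 h, with 2 replicates in each of the 6 groups, and input libraries from control cells and from the 16 h treatment, 1 of each. All groups carried the deletion of Ash2l and the fusion protein. A single list of sites covers the whole set of samples. How the calls were combined over the 12 H3K27me3 libraries is not given in the sources used here, and no site has a value for a library. From this list alone the members could therefore not be compared between control and treated cells, no value below has a replicate error, and none was tested. The study also made a table of sites that changed at each time, which was not analysed here. The reads behind a site are not given, so its depth is unknown, and where no site is listed the mark may still have been present below the threshold of the peak caller.

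T-box genes encode transcription factors that share a DNA-binding domain, the T-box, first known from the mesoderm gene Brachyury. They act in the patterning of limb, heart, pharynx and brain, and several are dosage-sensitive. Tbx2 and Tbx3 mainly repress their targets, while Tbx5 and Eomes are best known as activators, in the heart and in early mesoderm. H3K27me3 is set by Polycomb repressive complex 2, which is found at CpG-rich promoters of developmental regulators in cells that do not use them.

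A site overlapped the TSS window, 1 kb on either side of any annotated TSS, in 7 of the 10 genes (70.0%, 95% exact interval 34.8 to 93.3%), namely Tbx1, Tbx2, Tbx5, Tbx15, Tbx20, Eomes and Tbr1. Over all protein-coding genes this share was 31.5%, and over the 9738 genes with a CpG-rich promoter it was 25.5%. A site of at least 2 kb lay over the window in 6 genes (60.0%, 26.2 to 87.8%), compared with 16.1% of all protein-coding genes and 14.3% of those with a CpG-rich promoter. Tbx15 was the gene lost from the first count, since its only site there had the minimum width of the list, 200 bp. Tbx3, Tbx4 and Tbx18 had no site in any TSS window. Of 32 annotated TSSs of the 10 genes, 19 lay inside a site. For 6 genes all TSSs were inside sites, and for the other 4 genes none was. The exact intervals cover the counting of genes only, and linked genes are not independent.

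The covered share, the percentage of bases in sites, spread over the whole scale. It was 100% of the TSS windows for Tbx1, Tbx5 and Eomes, a value found in 5.44% of protein-coding genes. It was 87.3% for Tbx20, 69.3% for Tbr1, 66.8% for Tbx2 and 2.68% for Tbx15, and 0 for Tbx3, Tbx4 and Tbx18. The median was 68.1% over the members and 0 over all protein-coding genes. In the gene with 50 kb on either side, the covered share was highest for Tbx3, with 48.0%, followed by Tbx5 with 36.1%, Tbx20 with 30.3%, Eomes with 29.5% and Tbx1 with 25.3%. It was 9.86% for Tbx2, 9.26% for Tbx4, 4.53% for Tbr1, 1.91% for Tbx18 and 1.20% for Tbx15. The order at the TSS was thus not that of the surroundings, as Tbx3 was lowest by one measure and highest by the other. The median of 17.6% compares with 3.81% over all protein-coding genes, and the mean of 19.6% with 10.8%. Of the members, 5 were above the upper quartile of all genes, 14.9%.

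**Figure D1:**
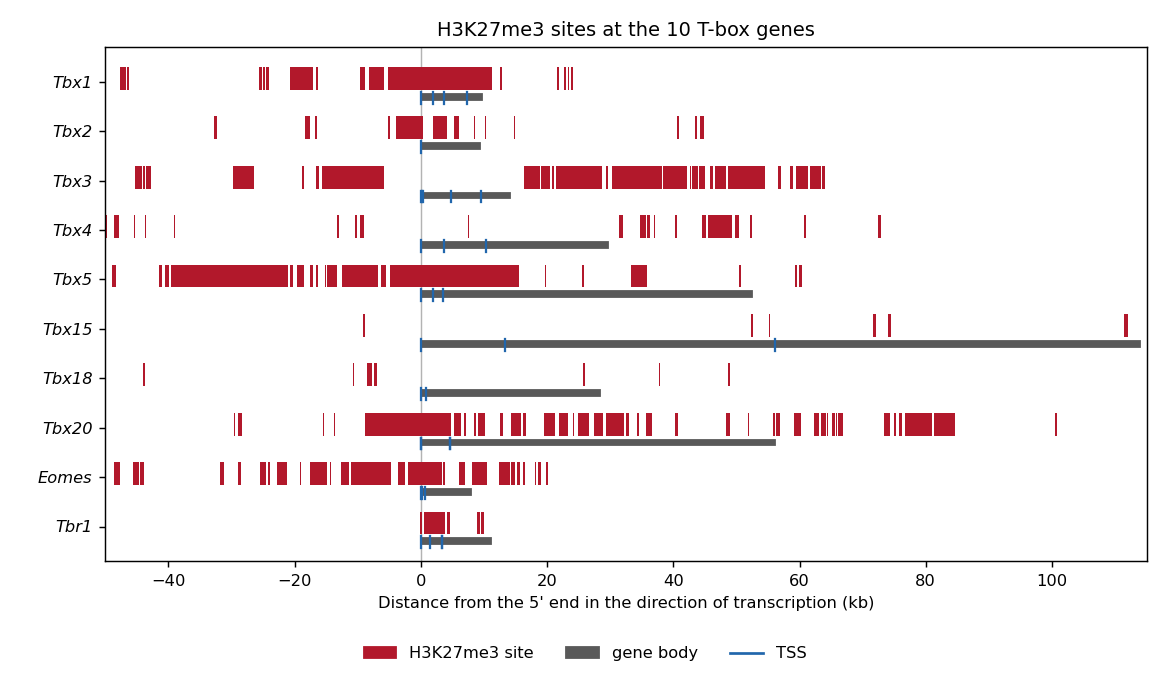
Map of the H3K27me3 sites (red blocks) at the 10 T-box genes, 1 gene per row, by distance in kb from the 5′ end in the direction of transcription; grey bars are gene bodies and blue ticks annotated TSSs. Blocks lie over the 5′ end in Tbx1, Tbx2, Tbx5, Tbx20, Eomes and Tbr1, whereas the gene bodies of Tbx3, Tbx4, Tbx15 and Tbx18 are free or nearly free of them.

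Among the genes with covered promoters, Tbx1, a regulator of the pharyngeal arches and the cardiac outflow tract, was the most completely covered. Tbx1 lies on chromosome 16, 18580979 to 18590671 (GRCm38, minus strand). A single site of 16527 bp, at 18579425 to 18595951, held all 4 TSSs and 100% of the body, and reached from 5.28 kb upstream of the 5′ end to 11.2 kb downstream of it. The covered share was 30.0% in the 50 kb upstream and 6.03% in the 50 kb downstream. The same site contained a TSS of the non-coding gene 4930588K23Rik. The whole of Tbx1 also aligned, at 99% identity or more, to other sequences of the assembly, and the effect of this on the site was not tested.

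Tbx20, which acts in heart muscle and valves, lies on chromosome 9, 24718138 to 24774303 (minus strand). A site of 13598 bp at 24769498 to 24783095 held its 4 TSSs and extended 8.79 kb upstream and 4.81 kb downstream of the 5′ end. Tbx20 had the most fragmented coverage of the members. Its body of 56.2 kb was overlapped by 22 sites that covered 40.2% of it, and 40 sites lay in the gene with 50 kb on either side. Of these, one of 4318 bp contained a TSS of Dpy19l2, the only other protein-coding gene with a TSS inside a site in any of the 10 stretches.

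Eomes encodes a factor of early mesoderm and endoderm, of trophoblast and of intermediate progenitors of the cortex. It lies on chromosome 9, 118478212 to 118486132 (plus strand). The site over its 3 TSSs, at 118476131 to 118481494, was 5364 bp wide, which was less than the site of 6355 bp centred 7.87 kb upstream of the gene. The covered share was 57.5% in the body, 40.9% upstream and 13.6% downstream. Tbr1, a factor of cortical projection neurons, lies on chromosome 2, 61802930 to 61814114 (plus strand). Its coverage was restricted to the gene. The 5 sites in the whole stretch all overlapped the body, 43.4% of which they covered, and the 50 kb upstream and downstream were covered to 0.356% and 0%. The 5′ end of Tbr1 was in a site of 319 bp, while the other 3 TSSs were in a site of 3180 bp at 61803503 to 61806682. Tbr1 and Eomes are close relatives within the family, and at both the TSS was covered, but the flanks of Tbr1 were nearly free of sites.

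**Figure D2:**
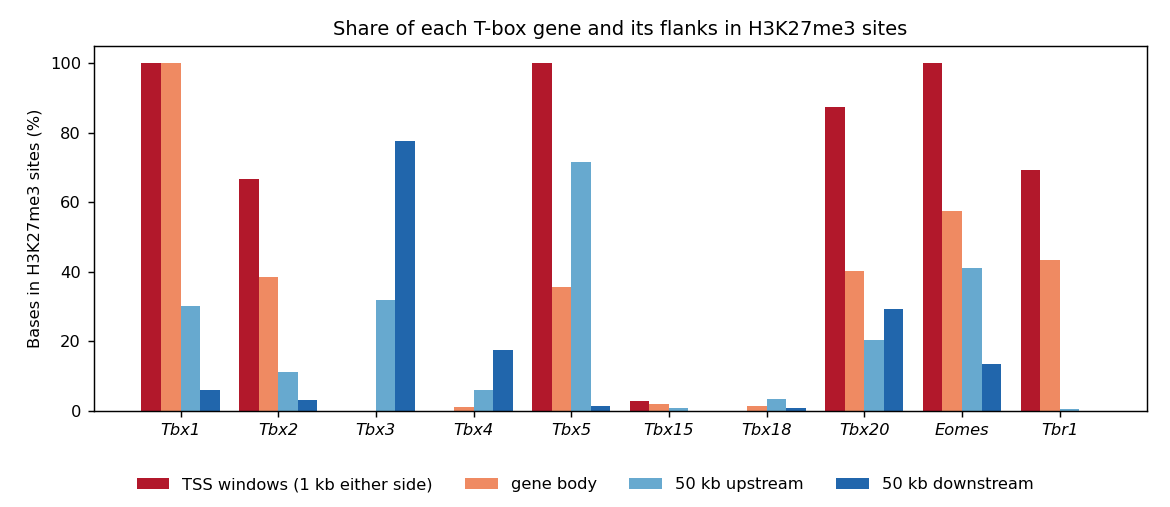
Bars give the percentage of bases in H3K27me3 sites in the TSS windows (1 kb on either side of each TSS), in the gene body and in the 50 kb upstream and downstream, for each of the 10 genes; there are no replicates and so no error bars. Tbx3 has 0 in windows and body beside 31.9% upstream and 77.7% downstream, while Tbr1 has 69.3% and 43.4% there beside 0.356% and 0.

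The linked pairs arose from an ancient duplication, by which Tbx2 and Tbx3 are the close relatives of each other, and likewise Tbx4 and Tbx5. The genes of a pair differed in this list, and so did the relatives. From the start of Tbx3 to the end of Tbx5 (chromosome 5, 119670669 to 119885219, 214.6 kb), 55.1% of the bases lay in 61 sites. From the start of Tbx2 to the end of Tbx4 (chromosome 11, 85832551 to 85916097, 83.5 kb), 6.56% lay in 10 sites. The stretch between the genes was covered to 67.2% by 56 sites for Tbx3 and Tbx5, of which 12 were at least 2 kb wide, and to 3.54% by 5 sites for Tbx2 and Tbx4, of which none exceeded 511 bp. Joining those less than 1 kb apart turned the 56 sites into 13.

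Tbx5, needed for the forelimb and the heart, lies at 119832668 to 119885219 (plus strand). The widest site of all members, 20425 bp at 119827723 to 119848147, held its 3 TSSs and reached 4.95 kb upstream and 15.5 kb downstream of the 5′ end. The 50 kb upstream of Tbx5, towards Tbx3, were covered to 71.5%, with a further site of 16877 bp at 119793103 to 119809979. The 50 kb downstream were covered to 1.24%.

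Tbx3, a repressor that acts in limb, mammary gland and the cardiac conduction system, lies at 119670669 to 119684724 (plus strand) and had no site in its body or in the windows of its 5 TSSs. The gene was enclosed by a site-free stretch of 22.1 kb, from 119664909 to 119686982. Upstream of it, a site of 9922 bp ended 5.76 kb before the 5′ end. In the 20 kb beyond the edges of the free stretch, 53.3% of the bases upstream and 88.7% downstream were covered. No other member with an uncovered 5′ end had such edges. The corresponding stretch was 16.5 kb long for Tbx4 (5.74% and 1.42% in the 20 kb beyond), 32.7 kb for Tbx18 (7.17% and 2.83%) and 61.2 kb for Tbx15 (1.85% and 4.63%). The Tbx3 stretch contained no N bases, had no alignment of at least 1 kb and 99% identity to another sequence of the assembly, and 16.3% of its TSS windows was repeat-masked, compared with 5.74 to 15.4% for the other members. Whether reads of Tbx3 were lost in alignment was not tested, and these values do not show how short reads align there.

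Tbx2, a repressor in heart, limb and eye, lies at 85832551 to 85841948 (plus strand). The site over its single TSS, at 85828568 to 85832886, was 4319 bp wide and lay almost wholly upstream, ending 335 bp after the TSS. It also contained a TSS of the antisense non-coding gene 2610027K06Rik, and the list cannot tell to which of the 2 genes the site belongs. Further sites of up to 2170 bp brought the covered share of the body to 38.6%. Tbx4, which acts in hindlimb and lung, lies at 85886422 to 85916097 (plus strand). None of its 3 TSSs was closer than 2652 bp to a site, and a single site of 284 bp in the body covered 0.957% of it. Downstream of Tbx4 a group of sites with a widest of 3702 bp covered 17.6% of the 50 kb. Thus a site lay over the TSS of Tbx2 but not of its relative Tbx3, and over that of Tbx5 but not of its relative Tbx4.

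**Figure D3:**
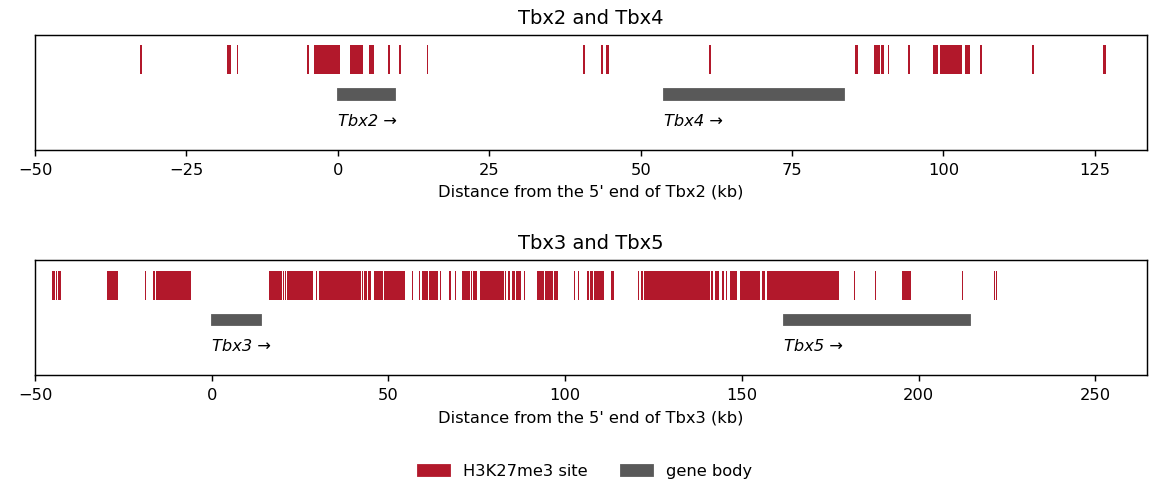
Maps of the linked pairs, by distance in kb from the 5′ end of Tbx2 (top) or Tbx3 (bottom); red blocks are H3K27me3 sites, grey bars gene bodies, and arrows give the direction of transcription. Sites fill most of the 147.9 kb between Tbx3 and Tbx5 but leave Tbx3 itself free, whereas few sites lie in the 44.5 kb between Tbx2 and Tbx4.

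Tbx15 and Tbx18 had little coverage at any distance. Tbx15, a gene of the skeleton and of dermal mesenchyme, lies on chromosome 3, 99240381 to 99354259 (plus strand). It is the longest member at 113.9 kb, and 5 sites of up to 720 bp covered 1.93% of it. The 5′ end was 8869 bp from the nearest site. The site that counted as a promoter site was 840 bp from an inner TSS located 56.1 kb into the gene. Tbx18, a gene of the epicardium, the sinus node and limb mesenchyme, lies on chromosome 9, 87702800 to 87731260 (minus strand). Its 2 TSSs were at least 7004 bp from a site and the body had 1 site of 366 bp. The widest site in the gene with 50 kb on either side was 881 bp. For Tbx15 the covered share of this stretch was higher than in 33.9% of protein-coding genes and for Tbx18 higher than in 39.7%, compared with 95.7% for Tbx3 and 91.8% for Tbx5.

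**Figure D4:**
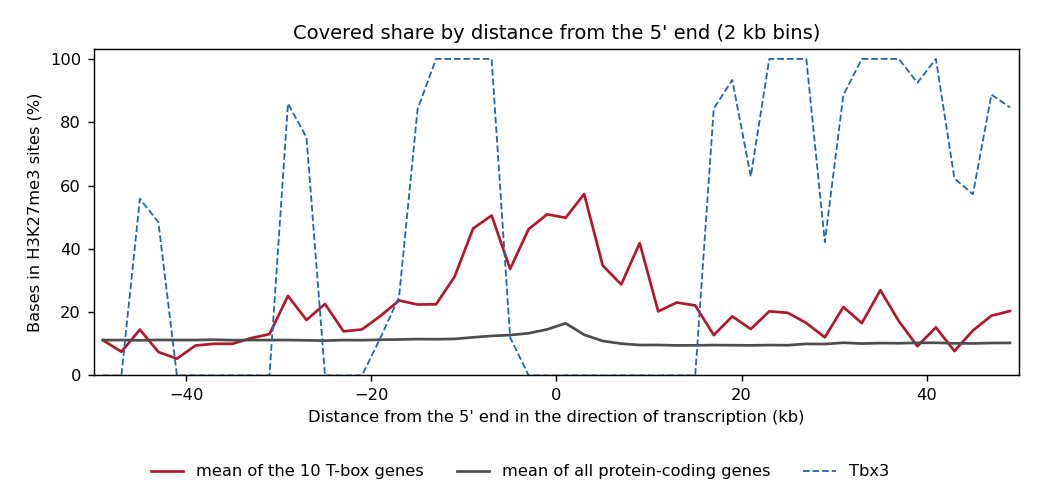
Mean percentage of bases in H3K27me3 sites in bins of 2 kb by distance from the 5′ end, for the 10 T-box genes (red), all 21938 protein-coding genes (grey) and Tbx3 alone (dashed blue). The mean of the T-box genes is highest near the 5′ end, at 57.3% from 2 to 4 kb downstream, where Tbx3 is at 0.

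By distance from the 5′ end, the mean coverage of the T-box genes was 50.9% in the 2 kb upstream, 49.8% in the first 2 kb downstream and 57.3% from 2 to 4 kb downstream. Over all protein-coding genes it was 14.5%, 16.5% and 12.8% in the same bins. More than 20 kb upstream, the bins of the T-box genes ranged from 5.30 to 25.1% and those of all genes from 11.0 to 11.3%. More than 20 kb downstream the ranges were 7.70 to 26.9% and 9.50 to 10.3%. These distant bins of the T-box genes rested on 1 to 5 genes with a site. The sites near the T-box genes were somewhat wider than those of the list, with a median of 526 bp against 455 bp, and 14.5% against 11.3% were at least 2 kb wide. Only 4 of the 173 were at least 10 kb wide, 1 over the TSSs of each of Tbx1, Tbx5 and Tbx20 and 1 between Tbx3 and Tbx5.

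Sequence composition was compared because it was not used to choose the genes. A promoter was called CpG-rich if GC content reached 50% and the CpG ratio, observed over expected, reached 0.6 in the window of 500 bp up- and downstream of the 5′ end. This held for 6 members, of which Tbx1, Tbx2, Tbx20 and Eomes had a site over the 5′ end and Tbx3 and Tbx18 had none. The ratio was highest for Tbx3, with 0.821, Tbx2, with 0.756, and Tbx18, with 0.754. Of the 4 members with less CpG-rich promoters, Tbx5 (0.426) and Tbr1 (0.254) had a site over the 5′ end and Tbx4 (0.512) and Tbx15 (0.364) had none. Both classes therefore held genes with and without a site.

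The RefSeq table of promoters (GRCm38.p6) held 6 of the members, Tbx1, Tbx4, Tbx18, Tbx20, Eomes and Tbr1, and not Tbx2, Tbx3, Tbx5 and Tbx15. The 250 bases before the start are shown, as they let promoters inside a site (Tbx1, Tbx20, Eomes and Tbr1) be read beside promoters outside one (Tbx4 and Tbx18). Capitals mark CpG dinucleotides. They lie at chr16:18590672-18590921 (Tbx1, minus strand), chr9:24774304-24774553 (Tbx20, minus strand), chr9:118477939-118478188 (Eomes, plus strand), chr2:61804203-61804452 (Tbr1, plus strand, before an inner TSS 1523 bp from the 5′ end), chr11:85896515-85896764 (Tbx4, plus strand, before the innermost TSS) and chr9:87731261-87731510 (Tbx18, minus strand).
Tbx1: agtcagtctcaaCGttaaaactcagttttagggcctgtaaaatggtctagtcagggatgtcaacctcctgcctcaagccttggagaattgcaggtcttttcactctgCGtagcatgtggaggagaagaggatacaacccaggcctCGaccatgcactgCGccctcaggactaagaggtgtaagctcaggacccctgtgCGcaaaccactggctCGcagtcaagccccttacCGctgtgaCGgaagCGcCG
Tbx20: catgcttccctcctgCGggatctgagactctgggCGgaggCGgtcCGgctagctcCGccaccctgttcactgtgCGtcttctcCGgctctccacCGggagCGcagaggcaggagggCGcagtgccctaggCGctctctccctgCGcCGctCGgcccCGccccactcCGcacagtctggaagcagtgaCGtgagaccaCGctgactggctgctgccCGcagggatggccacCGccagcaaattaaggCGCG
Eomes: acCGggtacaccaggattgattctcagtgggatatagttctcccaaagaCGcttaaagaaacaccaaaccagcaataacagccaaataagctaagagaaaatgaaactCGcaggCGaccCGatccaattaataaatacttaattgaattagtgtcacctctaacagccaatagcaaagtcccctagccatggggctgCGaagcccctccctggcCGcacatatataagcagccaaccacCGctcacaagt
Tbr1: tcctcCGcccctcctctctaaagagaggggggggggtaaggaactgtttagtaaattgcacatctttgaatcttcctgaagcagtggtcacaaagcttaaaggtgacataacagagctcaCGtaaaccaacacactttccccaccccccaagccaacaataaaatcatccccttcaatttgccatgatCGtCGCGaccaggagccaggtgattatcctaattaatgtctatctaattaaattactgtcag
Tbx4: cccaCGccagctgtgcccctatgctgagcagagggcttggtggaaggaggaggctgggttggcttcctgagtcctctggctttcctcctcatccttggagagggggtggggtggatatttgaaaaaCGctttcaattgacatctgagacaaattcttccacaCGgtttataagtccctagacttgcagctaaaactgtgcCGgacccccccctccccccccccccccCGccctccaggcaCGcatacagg
Tbx18: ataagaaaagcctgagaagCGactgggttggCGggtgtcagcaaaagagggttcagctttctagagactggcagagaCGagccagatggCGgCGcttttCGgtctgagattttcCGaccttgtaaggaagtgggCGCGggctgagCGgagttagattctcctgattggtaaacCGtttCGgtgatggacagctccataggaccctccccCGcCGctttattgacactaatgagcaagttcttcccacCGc

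Within these 250 bases, the covered promoters had 22 CpGs (Tbx20), 10 (Tbx1), 8 (Eomes) and 5 (Tbr1), and the uncovered ones 15 (Tbx18) and 6 (Tbx4). The ranges overlapped. The median over the 32851 promoters of the table was 6. All 250 bases lay in a site for the covered promoters and none for the others. For Tbr1 this describes the inner TSS, since at the 5′ end of the gene the site reached 178 bp upstream.

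Windows of 500 bp along each gene with 50 kb on either side were then divided by the same CpG criterion. Counting each window once, 43 of 82 CpG-rich windows (52.4%) and 590 of 2465 other windows (23.9%) overlapped a site. All 6 CpG-rich windows overlapped a site at Tbx20, 8 of 9 at Tbx5, 6 of 8 at Eomes and 10 of 17 at Tbx1. Tbx3 had the reverse order, with 0 of 7 CpG-rich windows but 128 of 220 other windows (58.2%). At Tbx15 the values were 0 of 5 and 12 of 422. Windows that neighbour each other are not independent, and no test was made.

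**Figure D5:**
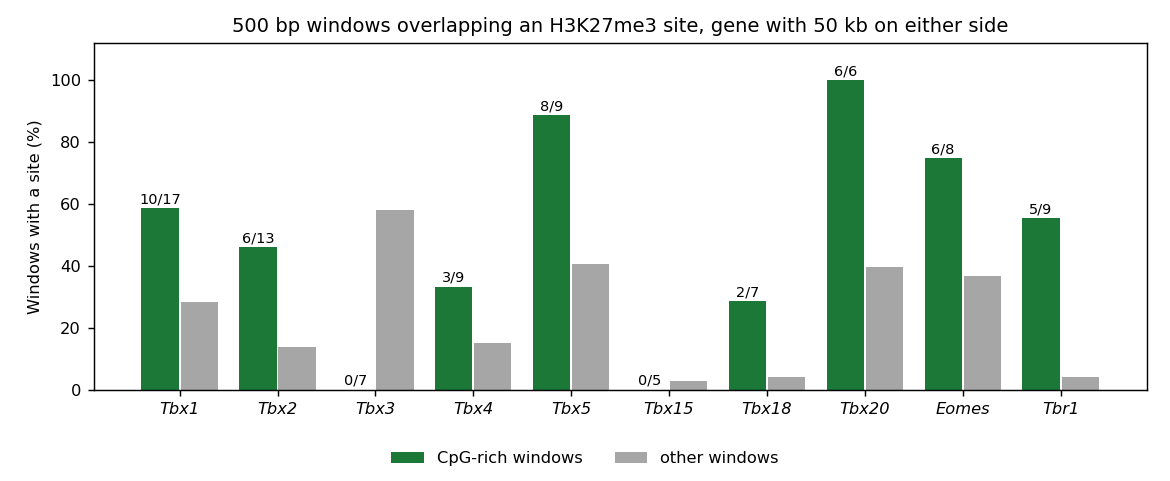
Percentage of 500 bp windows that overlap an H3K27me3 site, in the gene with 50 kb on either side, for CpG-rich windows (green, with their number) and other windows (grey). CpG-rich windows are the more often marked in 8 genes, while none is marked at Tbx3 (0 of 7) and Tbx15 (0 of 5).

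The other T-box family genes were examined in the same way. A site overlapped the TSS window in 5 of 7, and in the same number a site of at least 2 kb did. These were T (Brachyury), with a site of 12796 bp, Tbx21, the factor of type 1 helper T cells, with 7266 bp, Tbx22, a gene of palate development, with 4952 bp, Tbx19, a pituitary factor, with 4261 bp, and Tbx10 with 3416 bp. Tbx6, a gene of presomitic mesoderm, and Mga, which pairs with Max and is broadly expressed, had no site there. The covered share of the gene with 50 kb on either side was 40.9% for Tbx21, 36.0% for T and 3.43% for Mga, with a median of 20.7% over the 7 genes.

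Examined next were 21 genes that act with T-box factors in heart, limb and brain or are known as their targets. Of these, 16 had a site over the TSS window (76.2%, 95% exact interval 52.8 to 91.8%). A site of at least 2 kb lay there in 14 genes (66.7%, 43.0 to 85.4%). Over all protein-coding genes these shares were 31.5% and 16.1%. The widest site belonged to Hcn4, the pacemaker channel, with 44058 bp. All of the TSS windows lay in sites for 9 of the 21 genes. These included the cardiac factors Nkx2-5, Hand2 and Isl1, the hindlimb factor Pitx1, upstream of Tbx4, and the sinus node factor Shox2. Fgf10, a target of Tbx4 and Tbx5 in limb and lung, had sites of up to 2522 bp. No site lay over the windows of Gata6, of Nppa and Gja5, targets of Tbx5 in heart muscle, or of Cdkn1a and Cdkn2a, cell cycle inhibitors repressed by Tbx2 and Tbx3. The median covered share of the TSS windows was 81.3% in this list.

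The list holds no RNA, so the label of the cells was read only from where the mark was listed. Of 10 fibroblast genes, 4 (Col1a1, Vim, Pdgfra and Lum) had a site over the TSS window, none of which was wider than 437 bp. This share, 40%, was not below the 31.5% of all protein-coding genes. Of 17 genes of epithelium, endothelium, blood and neurons, 10 had a site there (58.8%). For 7 it was at least 2 kb wide (41.2%). Over all protein-coding genes these shares were 31.5% and 16.1%. By type, a site lay there in 3 of 5 epithelial, 1 of 4 endothelial, 3 of 4 blood and 3 of 4 neuronal genes. The presence of a site thus did not set the fibroblast genes apart from other genes, and the label of the cells was not checked further. No fibroblast gene reached the width found at 6 of the 10 T-box genes.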

How the data were processed

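H3K27me3 ChIP-seq was performed by the study on 12 libraries, with 2 input libraries. Per the methods, the authors used Trim Galore for trimming and BWA for alignment to mm10 (GRCm38), filtered reads with samtools, merged replicates with Picard and brought libraries to the lowest coverage; broad peaks were called with MACS2 per the labels. Versions, thresholds and the rule for combining peaks are not given in the sources used here. The deposited list of the authors gives only chromosome, start and end; its values are no signal but positions in bases, of another kind than reads or ratios, and 0 columns held values of an unassigned sample. Starts were read as counted from 0 and printed from 1.

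Sites were intersected with the GENCODE M21 annotation and the GRCm38.p6 sequence in Python 3.11.15 (numpy 2.4.6, pysam 0.24.0); copies in other sequences of the assembly were sought with minimap2 2.31-r1302. TSSs of all transcripts were used. Overlap functions were tested on simulated data. Exact intervals (95%) are Clopper-Pearson, from scipy 1.17.1. Members and lists were chosen with earlier results of these data known. Named were all members, with their sites over TSSs, widest and nearest sites, and all other T-box genes. Of the genes that act with T-box factors, those without a site, the widest and some examples with a site were named. Of the cell type genes, the fibroblast genes with a site were named. No test was run, as the list has no replicates. Alternatives joined sites, left out narrow ones, or changed windows, flanks, TSSs, overlap or the width taken as wide.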

Additional observations from a re-analysis of the deposited data

How the results depend on the processing

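No paired analysis was possible because a site has positions but no signal in any library. Leaving out replicates was likewise not possible. A value was taken as moved when it changed by more than 1.5 times. The number of T-box genes with a site over the TSS window lay between 6 and 7 in all settings and Tbx15 was the gene that left, when sites under 500 bp or under 1 kb were dropped, and with 500 bp windows, the 5′ end only or at least 200 bp of overlap. The number with a wide site lay between 4 (at least 5 kb) and 7 (sites closer than 5 kb joined). The median covered share of the TSS windows lay between 52.0 and 92.3%. The median for the gene with its flanks moved to 30.8% with sites closer than 5 kb joined and to 28.0% with 20 kb on either side. The Tbx2-Tbx4 locus moved to 23.3% with sites closer than 5 kb joined and to 3.0% without sites under 1 kb, whereas the Tbx3-Tbx5 locus lay between 47.2 and 75.4%. Protein-coding genes with a site over the window numbered 4403 without sites under 1 kb, compared with 6912, and between 5300 and 8164 otherwise. Of 110 values of single members under these settings, 19 moved. The causes of these moves follow from the settings, which add or remove sites or bases. As depth is unknown, a missing site cannot be read as a missing mark.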

Other observations

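Tbx3 was compared with other genes free of sites, a comparison chosen after its values had been seen. Of the protein-coding genes, 11404 had no site in the TSS windows or the body. Their median covered share with 50 kb on either side was 1.29%. Tbx3, with 48.0%, ranked 74 among them, so that 73 genes free of sites had a more covered neighbourhood.

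Of the stretch of Tbx1 with 50 kb on either side, 89.2% aligned at 99% identity or more to other sequences of the assembly, and this included the whole gene. Tbx1 was wholly covered by a site. The study names GRCm38.p6 as its reference, but whether these sequences were kept in it for alignment is not given in the sources used here. For Tbx18, 5.34% of the stretch aligned in this way, none of it in the gene or within 1 kb of it. The other 8 genes had no such alignment.

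Non-coding genes started inside several of the wide sites. The site over Tbx5 contained a TSS of Gm43050, that over Tbx20 one of Gm29824, and the site of 16877 bp between Tbx3 and Tbx5 one of 1700021F13Rik.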
